A study of Mus musculus with 8 samples.

Results

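The subject is the conjugating enzymes of the liver: the UDP-glucuronosyltransferases (*Ugt* genes) and the cytosolic sulfotransferases (*Sult* genes). The families were chosen with earlier results of these data known, and within them every gene whose symbol matched was taken, whatever its values, which gave 42 of the 55416 gene identifiers listed in the deposited table. These were 9 *Ugt1a*, 3 *Ugt2a*, 7 *Ugt2b* and 2 *Ugt3a* genes, 6 *Sult1* and 9 *Sult2* genes, and 6 genes of the *Sult3* to *Sult6* families. Both enzyme classes make fat-soluble compounds more water-soluble so that they can leave in bile or urine. The glucuronosyltransferases sit in the endoplasmic reticulum and transfer a sugar, usually glucuronic acid from UDP-glucuronic acid. The sulfotransferases sit in the cytosol and transfer a sulfate group from the donor PAPS. Their substrates in the liver include bilirubin, steroid and thyroid hormones, bile acids, phenols and many drugs.

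RNA sequencing of total RNA was done on 8 mouse liver libraries. In 4 of them (hepatocyte knockout, labelled HKO, Alb-cre+) the floxed *Smpd3* gene, which encodes a neutral sphingomyelinase, was removed by a Cre recombinase under the albumin promoter, which is active in hepatocytes. The other 4 (floxed control, labelled FLOX, Alb-cre-) carried no Cre. Every animal received the HFMCD diet for 9 weeks as a model of steatohepatitis, so the 2 groups share the diet and the floxed allele, and Cre itself cannot be told apart from the loss of *Smpd3*. The labels used here give no age or sex and do not say that the libraries came from separate animals, so the p-values speak only to the spread among these libraries, which may be technical.

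*Smpd3* itself was measured at 8.69, 10.7, 12.5 and 6.38 TPM across floxed controls 1 to 4 and at 1.17, 3.03, 1.27 and 2.06 TPM in knockouts 1 to 4, which matched the labels. TPM is a transcript's length-corrected share of its library. The log2 fold change was -1.89 with an SE of 0.24 (limma, adjusted p = 0.0300), and it stayed between -2.06 and -1.76 when 1 library was left out, but missed the adjusted threshold without floxed control 1 or 2 or knockout 1, 3 or 4. Depth is unknown because TPM keeps no read totals. Summed TPM of 10 hepatocyte markers ran from 76643 to 90145 across controls and from 68125 to 77624 across knockouts, with 9 of 10 lower in the knockout mean and 0 past the adjusted threshold, and their part in the results was not tested. Of 33 tested markers of other cell types 0 passed it. At an unadjusted p under 0.05 in limma, 2 of the 10 hepatocyte markers were lower in the knockout, against 2.45% of all tested genes. So were 1 of 7 Kupffer cell markers (*Marco*, adjusted p = 0.0609) and 1 of 8 endothelial markers (*Lyve1*, adjusted p = 0.397). In the other marker lists the count was 0 in either direction. The part of these markers in the results was not tested. All libraries had the Y-linked *Ddx3y* at 6.84 to 11.4 TPM and *Xist* at no more than 0.11 TPM. Floxed control 4 stood apart from the other libraries, with 12115 genes at 1 TPM or more against 12474 to 12890. Floxed control 3 held the lowest value of the 8 libraries for 9 of the 24 tested members.

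The genes of the *Ugt1a* locus show how the family is organised. They lie in a row on chromosome 1 (RefSeq, GRCm38.p6), each with a start and first exon of its own, and share their later exons. Their upstream bases are shown for 4 of them because members of 1 locus with very different levels can be set side by side. Each line gives the 150 bases before the RefSeq start, 5′ to 3′, with the half-site GTTAAT or its complement ATTAAC, a motif of hepatocyte nuclear factor 1, in capitals.
Ugt1a1 (chr1:88211809-88211958, plus strand): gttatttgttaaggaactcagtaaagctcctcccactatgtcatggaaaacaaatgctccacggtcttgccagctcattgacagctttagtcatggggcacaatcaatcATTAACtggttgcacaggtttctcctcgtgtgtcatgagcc
Ugt1a9 (chr1:88070629-88070778, plus strand): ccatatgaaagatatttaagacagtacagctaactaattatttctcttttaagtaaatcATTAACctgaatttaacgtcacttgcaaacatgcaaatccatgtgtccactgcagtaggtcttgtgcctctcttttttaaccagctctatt
Ugt1a10 (chr1:88055261-88055410, plus strand): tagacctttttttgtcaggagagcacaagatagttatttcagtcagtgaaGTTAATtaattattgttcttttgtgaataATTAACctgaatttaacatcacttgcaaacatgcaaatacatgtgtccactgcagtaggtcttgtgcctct
Ugt1a2 (chr1:88200461-88200610, plus strand): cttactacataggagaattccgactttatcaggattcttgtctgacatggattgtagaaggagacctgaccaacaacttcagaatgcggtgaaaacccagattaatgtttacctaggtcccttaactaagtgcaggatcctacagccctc

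Across the 8 libraries *Ugt1a1* stood at 191 to 243 TPM, *Ugt1a9* at 17.5 to 51.5 TPM, *Ugt1a10* at 0 to 0.75 TPM and *Ugt1a2* at 0 to 0.24 TPM. *Ugt1a9* and *Ugt1a10* share an unbroken block of 32 bases within these stretches, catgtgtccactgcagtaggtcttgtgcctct, and both carry ATTAAC, yet only the first was measured above 1 TPM. Of the 31-base words in the *Ugt1a9* transcript, 65.1% also occur in *Ugt1a10* transcripts. The part of this shared transcript sequence in the 2 levels was not tested. The RefSeq promoter table had 39 entries for 36 of the members, and 13 of the 39 had GTTAAT on either strand within 250 bases before the start, against 6.43% of all 32851 promoter entries. By gene, these were 13 of the 36, and they included *Sult2a3*, *Sult2a4*, *Sult2a5* and *Sult2a6*, which did not reach 1 TPM. Of the 21 members with an entry that were tested for a difference, 7 had it. Entries with shared bases, as in *Ugt1a9* and *Ugt1a10*, are not independent. A match is a description of these letters and not a site.

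The *Ugt2b* genes on chromosome 5 include some with shared upstream bases whose levels lie far apart. The 100 bases before the RefSeq start are shown for 4 of them, since they share one block around AGGTCA (capitals), a half-site of nuclear receptors.
Ugt2b36 (chr5:87092556-87092655, minus strand): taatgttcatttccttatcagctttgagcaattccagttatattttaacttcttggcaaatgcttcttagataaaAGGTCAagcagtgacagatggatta
Ugt2b5 (chr5:87140341-87140440, minus strand): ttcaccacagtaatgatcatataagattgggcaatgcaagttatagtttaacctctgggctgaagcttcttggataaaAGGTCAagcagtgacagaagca
Ugt2b38 (chr5:87424204-87424303, minus strand): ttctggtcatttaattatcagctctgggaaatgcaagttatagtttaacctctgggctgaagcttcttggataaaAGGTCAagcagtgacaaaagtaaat
Ugt2b37 (chr5:87254789-87254888, minus strand): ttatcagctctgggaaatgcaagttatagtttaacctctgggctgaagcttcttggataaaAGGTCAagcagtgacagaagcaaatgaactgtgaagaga

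All 4 hold the block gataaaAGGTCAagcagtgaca of 22 bases, and *Ugt2b5*, *Ugt2b38* and *Ugt2b37* share a longer one of 62 bases. Over the 8 libraries *Ugt2b36* stood at 276 to 331 TPM and *Ugt2b5* at 254 to 354 TPM, while *Ugt2b38* stood at 25.1 to 41.3 TPM and *Ugt2b37* at 0.42 to 2.93 TPM. *Ugt2b5*, *Ugt2b38* and *Ugt2b37*, which share the longer block, differed widely in level, while *Ugt2b36* and *Ugt2b5* lay in a similar range. The part of shared transcript sequence in these levels was not tested. AGGTCA on either strand was found in 10 of the members' 39 entries, against 14.0% of all entries. The antioxidant response element core TGACNNNGC was in 0 of the 39 and in 10.2% of all entries. The aryl hydrocarbon receptor core GCGTG was in 5 of the 39 (28.2% of all entries) and TATAAA in 10 (12.4%).

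Of the 42 members, 24 were tested, having 1 TPM or more in 4 or more of the 8 libraries, and 18 were not. The tested ones were 6 *Ugt1a*, 1 *Ugt2a*, 7 *Ugt2b*, 2 *Ugt3a*, 5 *Sult1* and 2 *Sult2* genes and *Sult5a1*. The other 18 never exceeded 0.75 TPM, and 5 of them (*Sult1c1*, *Sult2a4*, *Sult2a6*, *Sult3a2* and *Ugt2a1*) were listed at 0 in every library. They included *Ugt2a1* and *Ugt2a2*, known from the olfactory epithelium, *Sult4a1*, known from brain, and *Sult2b1*, a cholesterol sulfotransferase of skin. *Sult2a1* and *Sult3a1*, which are known as female-biased in mouse liver, did not exceed 0.53 and 0.06 TPM. The members together made up 0.191% to 0.229% of all TPM in a library.

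**Figure D1:**
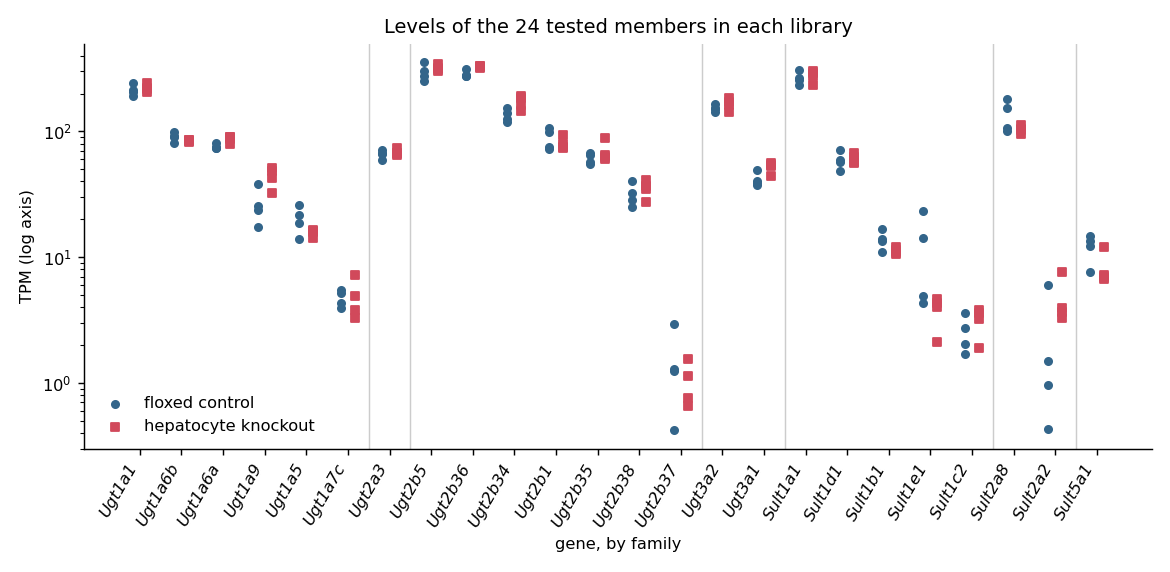
Each point is 1 library, with TPM on a log axis for the 24 tested genes, in columns by family (circles, 4 floxed controls; squares, 4 knockouts). Values run from 0.42 TPM (*Ugt2b37*) to 354 TPM (*Ugt2b5*), and the range within a gene is in most cases small beside the range between genes.

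In limma, none of the 24 tested members passed an adjusted p of 0.05, where 0.102% of all 12710 tested genes did (0.0472% higher and 0.0551% lower in the knockout), and the smallest adjusted p of a member was 0.294. At an unadjusted p under 0.05, 8 of 24 members passed, against 8.02% of all tested genes. Of these, 6 had higher values in the knockout (background 5.57%) and 2 lower values (background 2.45%). Leaving out knockout 3 brought the count to 3, leaving out floxed control 4 to 4, and leaving out either floxed control 3 or knockout 1 to 5. Among these 8 members, an exact permutation test gave p = 0.0286 for *Ugt2b36*, the lowest it can give with 4 libraries per group. For the others of the 8 the same permutation test gave p = 0.0571 to 0.114. Where members share much of their sequence, as the *Ugt1a* genes do, their values are not independent of each other. The 2 groups did not overlap in 1 of 24 members, against 4.74% of all genes (3.29% higher and 1.46% lower in the knockout). The mean of log2(TPM + 1), which decides a higher or lower mean in all counts here, was higher in the knockout for 15 of 24 members (background 64.6%) and for 12 of 24 after median-of-ratios scaling, where 50.0% of all genes were higher. Without floxed control 4 it was higher for 17 of 24, and for 48.7% of all genes. The median log2 fold change was 0.06 over the members and 0.05 over all genes. For 21 of 24 members the 95% interval lay within a 2-fold change in either direction, that is, between -1 and 1 on the log2(TPM + 1) scale on which all fold changes here are given.

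**Figure D2:**
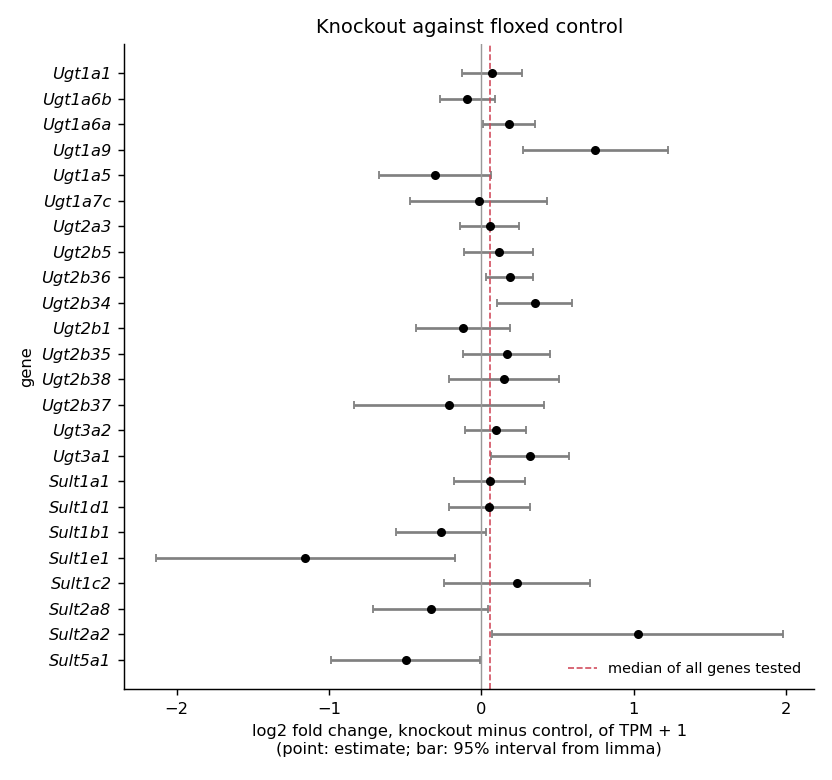
Points give the log2 fold change of TPM + 1, knockout minus floxed control, for each tested gene, with bars for the 95% interval from limma and a dashed line at the median of all genes tested. *Ugt1a9* and *Sult2a2* lie farthest to the right and *Sult1e1* farthest to the left, with wide bars for the last 2, and none passed the adjusted threshold.

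The *Ugt1a* group, which conjugates bilirubin and phenols, summed to 424, 470, 408 and 419 TPM across floxed controls 1 to 4 and to 436, 453, 485 and 458 TPM in knockouts 1 to 4. The groups overlapped. *Ugt1a1*, the bilirubin glucuronosyltransferase, was the most abundant member, at 46.9% to 51.6% of that sum in every library. It stood at 212, 242, 191 and 204 TPM across controls and 205, 223, 243 and 219 TPM across knockouts. Its log2 fold change was 0.07, with a 95% interval from -0.13 to 0.27 (limma adjusted p = 0.930).

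*Ugt1a9*, which acts on phenols and fatty acids, had the smallest p of all members. It stood at 38.0, 17.5, 25.4 and 23.9 TPM across floxed controls 1 to 4 and at 48.2, 32.7, 51.5 and 42.4 TPM in knockouts 1 to 4. The groups met only where floxed control 1 exceeded knockout 2. The means were 26.2 ± 8.56 and 43.7 ± 8.27 TPM (n = 4 each, ± SD; log2 fold change 0.75, SE 0.21, limma adjusted p = 0.294). As a share of the *Ugt1a* sum it went from 3.72% to 8.95% across controls and from 7.21% to 11.1% across knockouts. Without floxed control 1 the log2 fold change was 0.94 (limma adjusted p = 0.190), and without floxed control 2 it was 0.58 (0.409). Reads in the shared exons cannot be assigned by sequence alone, and 66.8% of the 31-base words in the *Ugt1a9* transcript also occur in other members.

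*Ugt1a6a* and *Ugt1a6b* encode enzymes of small planar phenols, and 83.9% of the 31-base words of *Ugt1a6b* occur in *Ugt1a6a*. *Ugt1a6a* stood at 74.2, 80.5, 75.3 and 74.2 TPM across floxed controls 1 to 4 and at 79.6, 89.7, 86.4 and 89.5 TPM in knockouts 1 to 4. Only floxed control 2 reached into the range of the knockouts (log2 fold change 0.18, SE 0.08, limma adjusted p = 0.600). The log2 fold change was 0.117 after median-of-ratios scaling (limma, unadjusted p = 0.198) and 0.121 after quantile normalization (0.0806). With the replicate block it was again 0.18, and the unadjusted p in limma was 0.115. *Ugt1a6b* ran from 80.5 to 99.1 TPM across controls and from 83.0 to 85.6 TPM across knockouts. The 2 together came to 166 ± 10.3 TPM across controls and 171 ± 5.66 TPM across knockouts (± SD, n = 4 each).

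*Ugt1a5* stood at 13.9 to 25.9 TPM across controls and at 14.3 to 16.4 TPM across knockouts, and *Ugt1a7c* at 3.96 to 5.45 and 3.30 to 7.20 TPM. *Ugt1a5* was less spread across knockouts than across controls, and the 2 groups overlapped in both genes. *Ugt1a8*, *Ugt1a10* and *Ugt1a2* stayed under the level for testing.

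**Figure D3:**
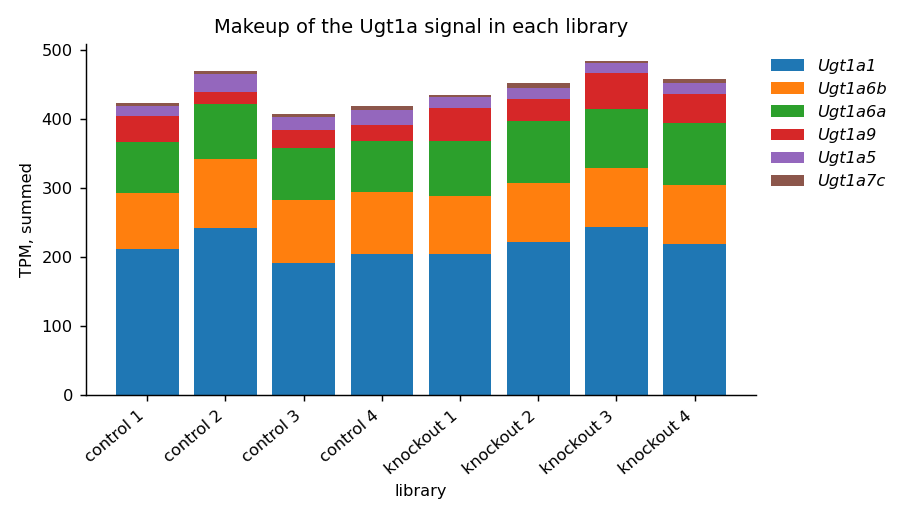
Stacked bars give summed TPM of the 6 tested *Ugt1a* genes in each library, controls on the left and knockouts on the right. *Ugt1a1* fills about the lower 46.9% to 51.6% of each bar, and the *Ugt1a9* segment is between 17.5 and 51.5 TPM.

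The *Ugt2b* group, which conjugates steroids, bile acids and opioids, held the largest share of the members' TPM, with a sum of 901 ± 93.0 TPM across controls and 1003 ± 44.2 TPM across knockouts (± SD, n = 4 each). By library the sum was 1029, 871, 809 and 894 TPM across floxed controls 1 to 4 and 957, 1062, 988 and 1006 TPM in knockouts 1 to 4. Floxed control 1 lay above 3 of the 4 knockouts. Of 7 tested genes, 5 had a higher mean in the knockout and 2 a lower one, where 64.6% of all genes had a higher one, and the median log2 fold change was 0.15, beside 0.05 over all genes.

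*Ugt2b34* stood at 153, 140, 125 and 119 TPM across floxed controls 1 to 4 and at 146, 193, 163 and 185 TPM in knockouts 1 to 4. Floxed control 1 and knockout 1 overlapped, and the other knockouts lay above every control (log2 fold change 0.35, SE 0.11, limma adjusted p = 0.364). Only 1.97% of its 31-base words occur in other members.

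*Ugt2b36* was the 1 member whose groups did not overlap. It stood at 316.29, 279.19, 275.92 and 277.22 TPM across floxed controls 1 to 4 and at 330.95, 327.53, 331.14 and 316.89 TPM in knockouts 1 to 4. The gap between floxed control 1 and knockout 4 was narrow, while the other 3 controls lay within a few TPM of each other. The log2 fold change was 0.19 ± 0.07 (SE), with an adjusted p of 0.491 in limma. After median-of-ratios scaling it was 0.12 (limma, unadjusted p = 0.237, adjusted p = 0.796). After quantile normalization it was also 0.12 (limma, unadjusted p = 0.0763, adjusted p = 0.560).

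*Ugt2b5* had the highest mean of the family over the 8 libraries, though *Ugt2b36* was higher across knockouts (327 against 319 TPM). It stood at 354, 277, 254 and 303 TPM across floxed controls 1 to 4 and at 312, 341, 319 and 304 TPM in knockouts 1 to 4, so the knockouts lay inside the range of the controls (log2 fold change 0.11, 95% interval -0.11 to 0.34). The log2 fold change was 0.20 without floxed control 1 (limma adjusted p = 0.646), 0.04 without floxed control 3 and 0.05 after median-of-ratios scaling. *Ugt2b1* ran from 72.9 to 107 and from 74.1 to 94.2 TPM, and *Ugt2b35* from 55.3 to 66.9 and from 60.4 to 88.9 TPM. *Ugt2b38* and *Ugt2b37* also overlapped between the groups, and 52.9% and 34.4% of their 31-base words occur in other members, mostly in *Ugt2b5*. Of the words of *Ugt2b5* itself, 55.8% occur in other members, so the levels of these genes are uncertain.

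In the *Ugt2a* group *Ugt2a3* alone was measured, at 71.4, 66.3, 58.9 and 66.9 TPM across floxed controls 1 to 4 and 67.6, 64.5, 74.3 and 67.2 TPM in knockouts 1 to 4. The groups overlapped, with a log2 fold change of 0.05 (95% interval -0.14 to 0.25) that turned to -0.0085 after median-of-ratios scaling and -0.016 after quantile normalization.

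The *Ugt3a* enzymes use sugar donors other than UDP-glucuronic acid. *Ugt3a1* was measured at 49.8, 40.1, 38.8 and 37.4 TPM across floxed controls 1 to 4 and at 44.4, 52.9, 55.8 and 54.6 TPM in knockouts 1 to 4. Knockout 1 lay below floxed control 1, and the other knockouts lay above every control (41.5 ± 5.63 against 51.9 ± 5.18 TPM; n = 4 each, ± SD; log2 fold change 0.32, SE 0.12, limma adjusted p = 0.475). Its neighbour *Ugt3a2* was more abundant, at 155, 166, 151 and 143 TPM across controls and 142, 161, 171 and 184 TPM across knockouts. The values of *Ugt3a2* overlapped, with a 95% interval of the log2 fold change from -0.11 to 0.30.

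**Figure D4:**
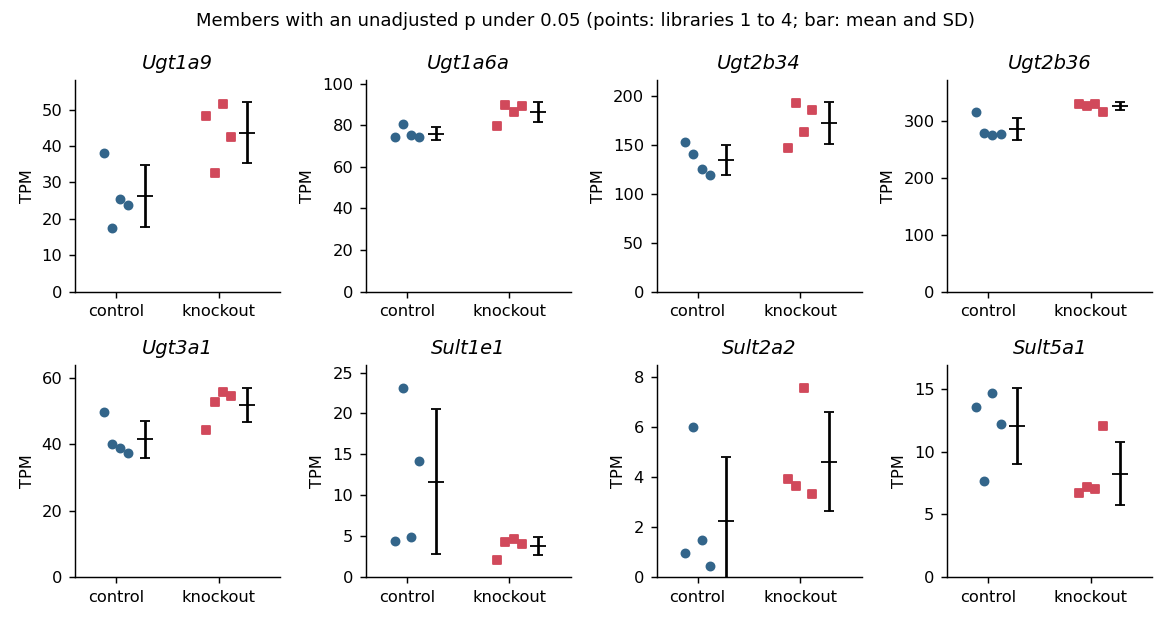
Each panel shows 1 of the 8 genes with an unadjusted p under 0.05, with TPM of floxed controls and knockouts 1 to 4 from left to right and the mean and SD beside them, on axes that start at 0. In *Ugt2b36* the highest control (316.29 TPM) sits just below the lowest knockout (316.89 TPM), and in the other 7 panels the groups overlap.

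Among the *Sult1* genes *Sult1a1*, the phenol sulfotransferase, was by far the most abundant. It stood at 257, 308, 235 and 265 TPM across floxed controls 1 to 4 and at 294, 236, 301 and 274 TPM in knockouts 1 to 4. The groups overlapped over nearly their whole range (log2 fold change 0.05, 95% interval -0.18 to 0.29, limma adjusted p = 0.959). The log2 fold change was -0.0089 after median-of-ratios scaling, -0.014 after quantile normalization and -0.0038 without floxed control 3.

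*Sult1e1*, the estrogen sulfotransferase, varied widely among the controls. It stood at 4.35, 23.1, 4.91 and 14.2 TPM across floxed controls 1 to 4 and at 2.11, 4.29, 4.69 and 4.02 TPM in knockouts 1 to 4. Floxed controls 2 and 4 were high, while floxed controls 1 and 3 lay next to the knockouts. The means were 11.6 ± 8.89 and 3.78 ± 1.15 TPM (n = 4 each, ± SD; log2 fold change -1.16, SE 0.44, limma adjusted p = 0.520). Leaving out floxed control 2 brought the log2 fold change to -0.75 (limma adjusted p = 0.663), and leaving out floxed control 4 brought it to -0.97 (0.688). It was -1.47 without floxed control 1 (limma adjusted p = 0.382) and -1.43 without floxed control 3 (0.407).

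*Sult1b1*, which acts on thyroid hormones, stood at 10.96 to 16.87 TPM across controls and 10.56 to 11.97 TPM across knockouts. *Sult1d1*, a sulfotransferase of catecholamines, stood at 48.4 to 71.1 and 55.9 to 66.9 TPM, and *Sult1c2* at 1.70 to 3.61 and 1.89 to 3.78 TPM. All 3 overlapped between the groups. None of the *Sult1* genes shares a 31-base word with another member, so in contrast to *Ugt1a* their reads can be told apart within the family. Outside the members, 9.35% of the words of *Sult1a1* and 2.04% of those of *Sult1c2* occur in transcripts of other genes.

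In the *Sult2* group *Sult2a8*, a bile acid sulfotransferase of mouse liver, made up nearly all of the summed TPM. It stood at 153, 100, 107 and 181 TPM across floxed controls 1 to 4 and at 112, 104, 105 and 96.3 TPM in knockouts 1 to 4. Floxed controls 1 and 4 were high, and the other 2 controls lay among the knockouts (log2 fold change -0.33, SE 0.17, limma adjusted p = 0.685). Floxed control 4 is the library that stood apart in the number of genes measured, and without it the log2 fold change was -0.18. Without floxed control 1 it was -0.26, without floxed control 2 it was -0.46 and without floxed control 3 it was -0.43.

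*Sult2a2*, a hydroxysteroid sulfotransferase, stood at 0.97, 6, 1.49 and 0.43 TPM across floxed controls 1 to 4 and at 3.92, 3.65, 7.56 and 3.31 TPM in knockouts 1 to 4. Floxed control 2 lay inside the range of the knockouts and the other 3 controls below it (log2 fold change 1.03, SE 0.43, limma adjusted p = 0.588). Without floxed control 2 the log2 fold change was 1.49, with the smallest adjusted p reached by any member in any alternative (0.0859 in limma). It was 0.73 without floxed control 4 (limma adjusted p = 0.738), 0.80 without knockout 3 (0.910), and 0.45 with a pseudocount of 5 (0.638). Its transcript shares 74.5% of its 31-base words with other *Sult2a* genes, so its value is uncertain. No other *Sult2* gene reached the level for testing.

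*Sult5a1*, a sulfotransferase without a well-known substrate, stood at 13.5, 7.69, 14.7 and 12.2 TPM across floxed controls 1 to 4 and at 6.71, 7.19, 7.02 and 12.01 TPM in knockouts 1 to 4. Floxed control 2 lay near the knockouts and knockout 4 near the controls (log2 fold change -0.50, SE 0.22, limma adjusted p = 0.617). All these values come from whole liver, where fewer cells of a type and less RNA per cell cannot be told apart.

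**Figure D5:**
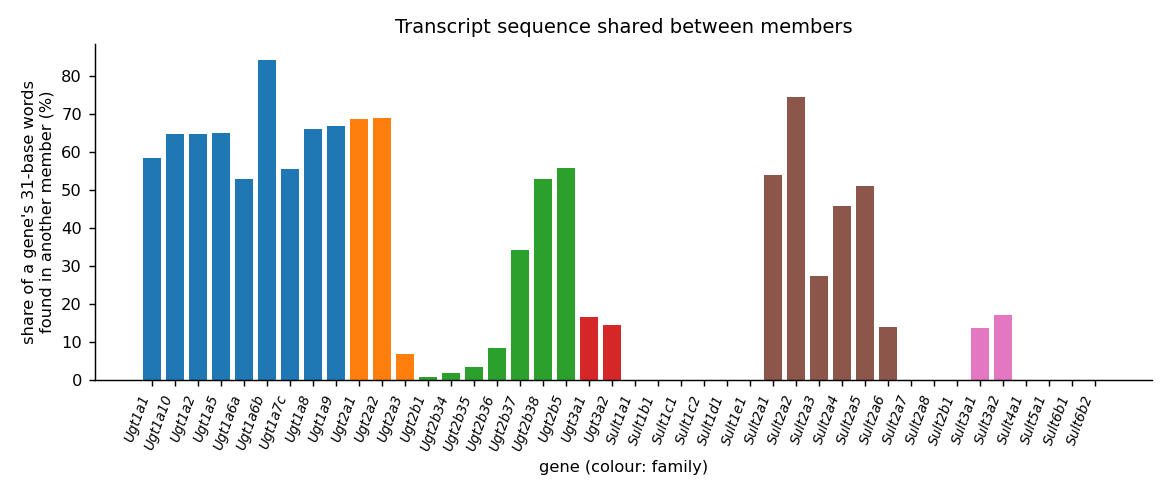
Bars give, for each of the 42 members, the percentage of distinct 31-base words in its GENCODE M21 transcripts that also occur in transcripts of another member. *Ugt1a6b* reaches 84.2% and *Sult2a2* 74.5%, while the *Sult1* genes are at 0.

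The rest of the conjugation pathway was read from lists, whose counts stand against 64.6% of all genes with a higher mean (50.0% after median-of-ratios scaling) and 8.02% with an unadjusted p under 0.05. Of 12 tested genes listed for sugar and sulfate donor supply, 0 passed the adjusted threshold in limma and 2 had an unadjusted p under 0.05. A higher mean in the knockout was seen for 11 of the 12. *Suox*, which oxidises sulfite to sulfate, stood at 33.7 ± 4.51 TPM across controls and 41.3 ± 3.69 TPM across knockouts. *Papss1*, a PAPS synthase, stood at 8.59 ± 1.44 and 11.2 ± 1.75 TPM (± SD, n = 4 each). The median log2 fold change of this list was 0.18, beside 0.05 over all genes. Of 6 tested genes of conjugate hydrolysis and 9 of conjugate transport, 0 passed the adjusted threshold in limma and 0 had an unadjusted p under 0.05. A higher mean in the knockout was seen for 4 of the 6 and 6 of the 9. *Abcc2*, the canalicular exporter of glucuronides, stood at 84.4 ± 15.1 TPM across controls and 97.6 ± 16.9 TPM across knockouts.

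Of 13 regulators of conjugation genes, 6 had a higher mean in the knockout. In limma 0 passed the adjusted threshold and 1 had an unadjusted p under 0.05. That gene was *Nr0b2*, which encodes the repressor SHP, at 40.6 ± 10.8 TPM across controls and 71.0 ± 12.5 TPM across knockouts (n = 4 each, ± SD; log2 fold change 0.81, SE 0.19, limma adjusted p = 0.206). Of 15 tested targets of the same receptors outside the 2 enzyme classes, 10 had a higher mean in the knockout. In limma 0 passed the adjusted threshold, and 4 had higher and 2 had lower values at an unadjusted p under 0.05. *Cyp3a11*, a target of the pregnane X receptor, stood at 823 ± 91.7 and 1091 ± 82.3 TPM, and its groups did not overlap (limma adjusted p = 0.186). *Gclc*, a glutathione synthesis gene under NRF2, stood at 101 ± 14.8 and 152 ± 15.9 TPM, also without overlap (limma adjusted p = 0.134). *Nqo1*, *Gclm*, *Srxn1* and *Gsta1*, also in this list, had log2 fold changes of -0.0052, 0.030, -0.11 and 0.16. Their groups overlapped (limma adjusted p of 0.776 or more). *Cyp8b1*, a bile acid synthesis gene, stood at 182 ± 27.4 and 132 ± 19.1 TPM (limma adjusted p = 0.281).

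Sex-biased liver genes were read because several sulfotransferases differ between the sexes. Of 7 tested female-biased genes, 7 had a higher mean in the knockout, and of 11 tested male-biased genes 1 did, where 64.6% of all genes did. In limma 0 of either list passed the adjusted threshold. At an unadjusted p under 0.05 the female-biased list had 2 genes with higher values, and the male-biased list had 3 with lower and 1 with higher values, against 5.57% of all genes higher and 2.45% lower. *Cyp2d9*, which is male-biased, stood at 353 ± 12.5 TPM across controls and 245 ± 26.7 TPM across knockouts (n = 4 each, ± SD; limma adjusted p = 0.0730). *Cyp2a4*, which is female-biased, stood at 5.94 ± 1.27 and 11.04 ± 3.33 TPM (limma adjusted p = 0.230). Whether these values have a part in those of *Sult2a2* or *Sult1e1* was not tested.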

How the data were processed

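Per the labels' protocols, library preparation kept the strand and started from total RNA. The authors deposited 1 table of TPM values, each a length-corrected share of its library, with 2 decimals, and each library summed to between 994563 and 995449. RSEM 1.3.3 and GRCh38.p13 are named in the submitters' processing notes, the latter a human genome, although the table lists mouse gene identifiers. The aligner, the annotation and the strand option count as not given in the sources used here. Symbols were matched for 52083 of 55416 identifiers. TPM is a share, so a change in abundant transcripts moves every other value, and RSEM divides reads among genes with shared sequence by estimation.

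Values were taken as log2(TPM + 1), and 12710 genes that had 1 TPM or more in 4 or more of 8 libraries were tested in limma 3.58.1 (R 4.3.3; lmFit, eBayes with trend), 4 knockouts against 4 controls, without covariates. P-values were Benjamini-Hochberg adjusted over all tested genes, at 0.05. The fit was tested on simulated data. The members and lists were chosen with earlier results of these data known. Of the members, those named in full had an unadjusted p under 0.05, no overlap between groups, or the highest mean or smallest p of their group. From each list, up to 4 genes of smallest p could be named.

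Words of 31 bases were counted in GENCODE M21 transcripts on the given strand. Promoter letters came from RefSeq (GRCm38.p6) and were searched on both strands, and do not show which annotation the authors used. The results were recomputed without each library in turn, with a replicate block, with library weights or robust eBayes, under 3 other scalings, with a pseudocount of 0.1 or 5, and with the filter dropped or set to a mean of 5 TPM.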

Additional observations from a re-analysis of the deposited data

Results flagged for a closer look

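In groups of 4 libraries, a value was looked at again where its gap to the nearest other value, as a share of the group's range, exceeded Dixon's 95% critical value. Of 62 groups examined (24 members and 7 sums, in controls and knockouts), 5 met it, where chance gives about 1 in 20. *Sult2a2* was 7.56 TPM in knockout 3, against 3.31 to 3.92 TPM in the other knockouts. *Sult5a1* was 12.01 TPM in knockout 4, against 6.71 to 7.19 TPM, and the summed *Sult3* to *Sult6* genes, nearly all of it *Sult5a1*, were 12.19 TPM there against 6.80 to 7.30 TPM. *Ugt2b35* was 88.89 TPM in knockout 2, against 60.4 to 64.7 TPM. *Ugt2b36* was 316.29 TPM in floxed control 1, against 275.92 to 279.19 TPM in the other controls, and this library is the one nearest to the knockouts in that gene.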

How the results depend on the processing

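The number of members past the adjusted threshold was 0 in limma in each of the 18 alternatives, while at an unadjusted p under 0.05 it was 5 to 8 in the 10 alternatives with all libraries and 3 to 7 without 1 library (3 without knockout 3, 4 without floxed control 4). The members counted were not always the same. *Ugt1a6a* and *Ugt2b36* were not among them after median-of-ratios scaling (limma, unadjusted p = 0.198 and 0.237) or quantile normalization (0.0806 and 0.0763). Members with a higher mean numbered 12 to 17 of 24 in the fits of those genes, 13 of 20 at a mean of at least 5 TPM and 24 of 37 without a filter, where more genes are tested. Of 251 recomputed log2 fold changes of 14 named members, 246 kept their direction and 5 turned. The turned values were -0.0089 and -0.014 for *Sult1a1* after median-of-ratios scaling and quantile normalization, -0.0038 for it without floxed control 3 (up to 0.13 without other libraries), and -0.0085 and -0.016 for *Ugt2a3* after the same 2 scalings. *Smpd3* kept a log2 fold change of -1.89 without a filter (adjusted p = 0.167 in limma, more genes tested) and with the replicate block (adjusted p = 0.0818 in limma), and did not pass in either. Leaving out 1 library gave -2.06 to -1.76, and it did not pass without floxed control 1 or 2 or knockout 1, 3 or 4. Deviations of same-numbered libraries correlated weakly (r = -0.15, 0.03, -0.15 and -0.20), beside r from -0.10 to 0.19 in differently numbered pairs. Such values cannot settle whether same-numbered libraries share more than a number. With the replicate block 5 members had an unadjusted p under 0.05. Over all genes 6 passed the adjusted threshold as higher and 7 as lower, up to 10 and 10 with library weights or without the most abundant genes, and 0 without a filter, with the block, without floxed control 1 or without knockout 3. Read depth is unknown, so counting error cannot be given.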

Other observations

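The split between *Ugt1a6a* and *Ugt1a6b* was looked at after their values had been seen, and no test was run on it. *Ugt1a6a* was 92.2%, 81.2%, 81.8% and 82.9% of *Ugt1a6b* in floxed controls 1 to 4 and 96.0%, 107%, 102% and 105% in knockouts 1 to 4, so the ratio did not overlap between the groups. It was 84.5% ± 5.17 in the controls and 102% ± 4.60 in the knockouts (SD, n = 4 per group). Neither gene passed the adjusted threshold on its own. The ratio rests on the bases in which the 2 transcripts differ and on how RSEM divided the shared reads, and the part of that division in the ratio was not tested.

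Among the controls, floxed control 2 was the highest in every tested *Sult1* gene and in *Sult2a2*, and the lowest in *Sult2a8* and *Sult5a1*. Floxed controls 2 and 4 were high in *Sult1e1*, floxed controls 1 and 4 in *Sult2a8*, and floxed control 2 alone in *Sult2a2*.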
